A study of Homo sapiens with 6 samples.

Results

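The MYC, MAX and MXD network is a set of transcription factors that compete for shared partners, and 10 of its genes were followed here: MYC, MAX, MXD1, MXD3, MXD4, MXI1, MNT, MLX, MGA and MLXIP. They were chosen by name from 35052 genes in the deposited tables, and all 10 were abundant enough to be among the 12954 genes tested. The network was taken up because MYC stood out in an earlier analysis of the same comparison. The differences of its members between the groups are therefore given as a description with their spread, and where a tool's calls over all genes are counted among the members, nothing is read from them.

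The cells were EoL-1, an established human cell line derived from eosinophilic leukaemia and labelled as eosinophil. 3 libraries came from cells with the genotype JUN knockout and 3 from cells with the genotype ATF3/JUN double knockout. All 6 libraries carried the JUN knockout, so the comparison addresses the added ATF3 knockout in cells already edited for JUN, and no unedited library was analysed here. The labels name CRISPR/Cas9 as the editing method. A code in the file names is shared by the same-numbered libraries of both groups and differs between numbers, and each library may stand for 1 clone. The labels do not say that the libraries of a group were separate cultures, and the spread between them may be technical.

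MYC binds DNA only as a pair with MAX, at a sequence called the E-box, and activates genes of growth and metabolism. MXD1, MXD3, MXD4, MXI1 and MNT also pair with MAX at the same sites and recruit the SIN3 corepressor, and MGA brings MAX into a polycomb repressor complex. MLX is a second hub: it pairs with MLXIP, also called MondoA, which responds to glucose, and with some MXD proteins and MNT. In myeloid cells MYC is known as a gene of dividing precursors and MXD1 as one of maturing cells.

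Each library held 26146998 to 29567970 estimated reads, and Spearman correlations between libraries across genes lay between 0.979 and 0.994. In CPM, reads scaled to a common library size, ATF3 ranged from 8.89 to 20.2 in the JUN knockout and from 7.63 to 13.1 in the double knockout. JUN was at 13.2 to 27.2 and 13.8 to 25.7 CPM, and since an edit that disrupts the protein need not lower the mRNA, these levels do not check the edits. The main axis of variation, with 53.7% of the variance, crossed the genotypes: JUN knockout 1 and double knockouts 1 and 2 lay on one side of it, and JUN knockouts 2 and 3 and double knockout 3 on the other. Of 9 eosinophil markers, EPX, PRG3, CLC and IL5RA had no reads in any library, while RNASE2 and RNASE3 carried nearly all of a summed level of 70.4 to 194 TPM in the JUN knockout and 120 to 186 TPM in the double knockout. TPM is a level scaled for transcript length. Summed markers of neutrophils were at 26.7 to 43.0 and 31.7 to 87.2 TPM, with ELANE, AZU1, PRTN3 and LTF at 0. The 6 monocyte markers summed to 35.8 to 43.3 and 32.1 to 50.5 TPM, and the 5 of red cells and platelets to at most 0.492 TPM. The 6 lymphocyte markers summed to 142 to 157 and 174 to 188 TPM, almost all of it NKG7, with CD3E at 0. The part of these markers in the results that follow was not tested, and in bulk RNA fewer cells of a type and less RNA per cell cannot be told apart.

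MYC was the member with the highest level per length in every library. It lies on chromosome 8 at 127735434 to 127741434 in GRCh38, plus strand (ENSG00000136997). Its 6 levels were 375, 337 and 341 TPM in JUN knockouts 1, 2 and 3 and 472, 493 and 431 TPM in the double knockouts. MAX, the shared partner, followed at 57.9 to 77.6 TPM over the 6 libraries, and MLX at 39.1 to 51.2 TPM. The ranges of these 3 genes did not overlap each other in TPM. The order of MAX and MLX depends on MAX-209, a transcript with an effective length of 77.1 bases. In JUN knockout 1 it held 20.3 of the 70.0 TPM of MAX, where MLX was at 51.2 TPM. Below these 3 genes the ranges of neighbours in the order overlapped: MXD3 at 16.9 to 29.98 TPM, MXD4 at 18.2 to 25.8, MGA at 14.4 to 21.2, MNT at 12.5 to 17.6, MLXIP at 10.5 to 14.3, MXD1 at 7.23 to 10.7 and MXI1 at 3.06 to 11.1 TPM. MXD3 and MXD4 cannot be ordered, since MXD3 was above MXD4 in 3 of 6 libraries. MGA was above MNT, and MLXIP above MXD1, in 6 of 6. The top of the MLXIP range includes MLXIP-206, with an effective length of 10.04 bases. There 1 read added 3.16 TPM in JUN knockout 3 and 2.95 TPM in double knockout 3.

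**Figure D1:**
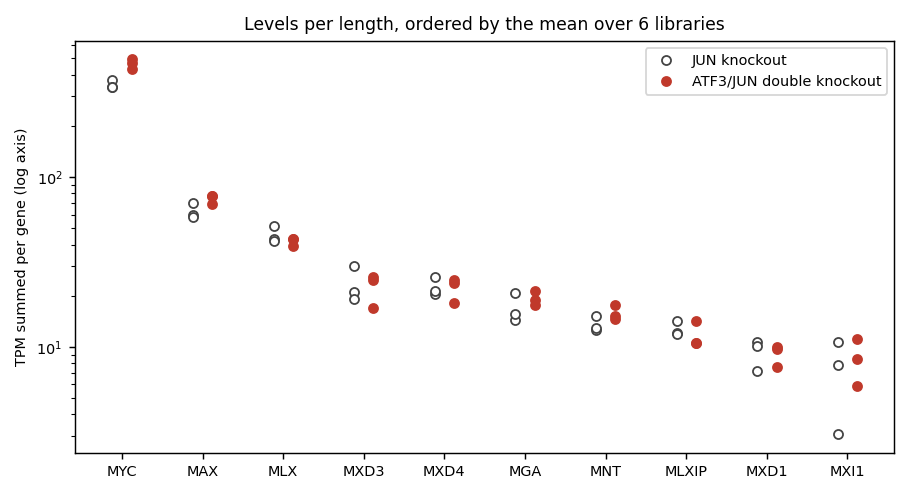
TPM summed per gene for the 10 network genes (log axis), ordered by the mean over 6 libraries. Open points are JUN knockout libraries and filled points double knockout libraries. MYC stands at 337 to 493 TPM and MXI1 at 3.06 to 11.1 TPM.

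The MYC mRNA was higher in every double knockout library than in any JUN knockout library. It was at 552, 576 and 590 CPM in the JUN knockout and at 759, 759 and 718 CPM in the double knockout. The groups did not overlap, and the highest JUN knockout library lay well below the lowest double knockout library. The means were 573 ± 19.1 and 745 ± 23.5 CPM (SD, n = 3 each). The log2 fold change, double knockout minus JUN knockout, was 0.38 (SE 0.07), or 1.301-fold. Within the same-numbered pairs the log2 differences were 0.46, 0.40 and 0.28. On the 2 sides of the main axis of variation the log2 differences were 0.46 (JUN knockout 1 against double knockouts 1 and 2) and 0.30 (JUN knockouts 2 and 3 against double knockout 3). Of all 12954 genes, 687 (5.30%) had a log2 fold change at least as high.

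The split of the MYC reads over its transcripts was not told apart between the groups. The leading transcript MYC-202 held 42.5%, 48.1% and 46.5% of them in the JUN knockout and 47.8%, 46.5% and 44.6% in the double knockout. These shares overlapped (45.7 ± 2.87% and 46.3 ± 1.63%, SD, n = 3 each, exact two-sided permutation p = 0.9). MYC-205 and MYC-206 held 22.7% to 24.4% and 20.6% to 24.5%. Transcript shares are Salmon's estimates, because most reads of a gene fit several of its transcripts.

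**Figure D2:**
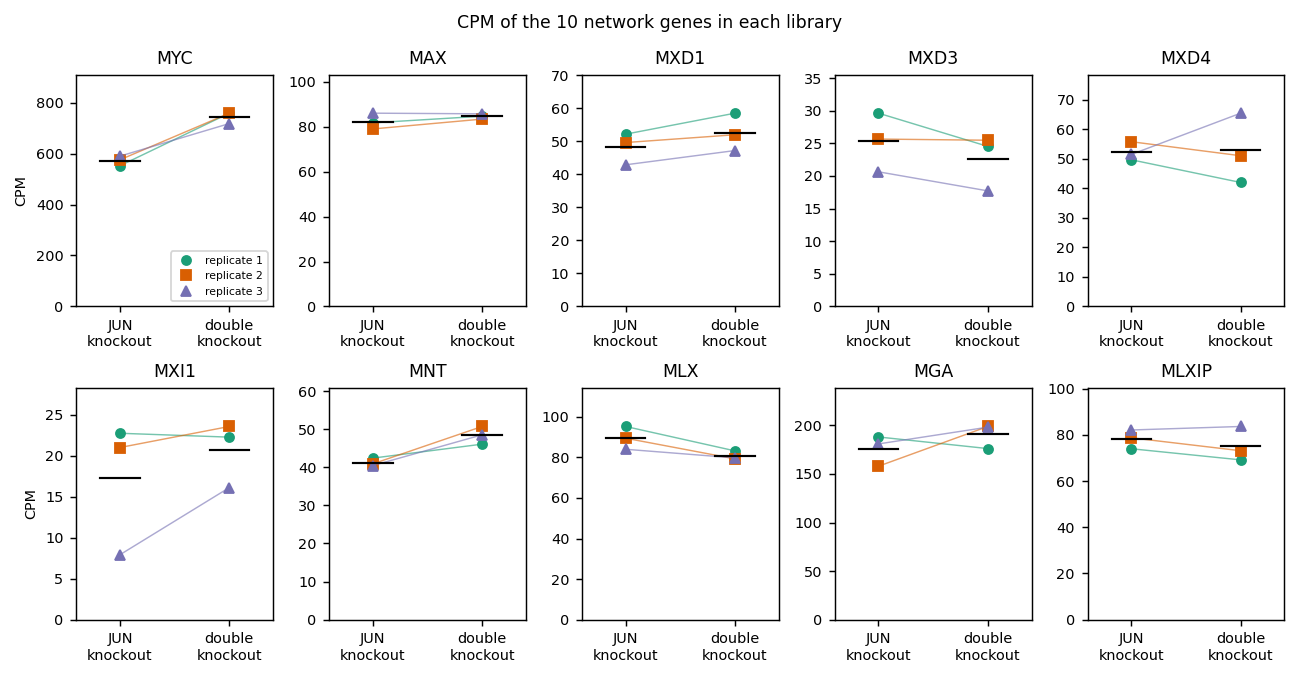
CPM of each network gene in each library, with lines joining same-numbered libraries of the JUN knockout and the double knockout and black bars at the group means (axes start at 0). MYC and MNT are higher and MLX lower in all 3 double knockout libraries, while JUN knockout 3 stands alone for MXI1 at 7.93 CPM.

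MAX, the shared partner of MYC and its antagonists, differed little in reads. Its levels were 81.8, 79.1 and 86.1 CPM in the JUN knockout and 84.8, 83.5 and 85.8 CPM in the double knockout. The groups overlapped, and the log2 fold change was 0.04 (SE 0.07). With a correction for transcript length it was 0.26. Short transcripts weigh more on the length-corrected scale. MAX-209, annotated as retaining an intron and with an effective length of 77.1 bases, had TPM levels of 20.3, 19.9 and 11.5 in JUN knockouts 1, 2 and 3 and of 18.8, 28.0 and 27.6 in the double knockouts, with overlap. MAX-210, with an effective length of 515 bases and 0 to 114 estimated reads, was at 3.00, 0 and 0 TPM and at 6.65, 7.58 and 4.15 TPM, without overlap. MAX-201 went the other way without overlap, at 2.09, 1.90 and 1.68 TPM and at 0.978, 1.06 and 1.05 TPM. As MAX has 19 transcripts, nothing is read from single ones without overlap. The part of each transcript in the length-corrected value was not tested. MAX-204 held 53.1 ± 6.04% of the MAX reads in the JUN knockout and 49.3 ± 3.90% in the double knockout (SD, n = 3 each, exact permutation p = 0.5). The difference in this share was −3.78 percentage points, between −6.11 and −0.371 with 1 library left out, where −0.371 was without JUN knockout replicate 2. As a share of TPM it was −7.03 points (exact permutation p = 0.1, the smallest that 3 libraries against 3 allow). MAX overlaps FNTB on the opposite strand, and how the counting used strand is not given in the sources used here.

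MNT, the most widely expressed repressor partner of MAX, was the other member that was higher throughout. It was at 42.4, 40.9 and 40.5 CPM in the JUN knockout and at 46.1, 50.7 and 48.5 CPM in the double knockout. The groups did not overlap, with the JUN knockout libraries within a narrow range. The log2 fold change was 0.23 (SE 0.08), or 1.17-fold, with pair differences of 0.12, 0.31 and 0.26. On the 2 sides of the main axis it was 0.19 and 0.25. MNT-201 held 79.1 ± 1.55% and 80.2 ± 0.40% of its reads (SD, n = 3 each, exact permutation p = 0.4).

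MLX, the partner of MLXIP, was lower in the double knockout. It was at 95.2, 89.4 and 84.0 CPM in the JUN knockout and at 83.2, 79.3 and 79.7 CPM in the double knockout. The groups did not overlap, though the lowest JUN knockout library and the highest double knockout library lay close together. Its log2 fold change was −0.15 (SE 0.08), with pair differences of −0.19, −0.17 and −0.07 and values of −0.23 and −0.12 on the 2 sides of the main axis. MLXIP, the glucose-responsive partner, was at 74.0, 78.8 and 82.1 CPM in the JUN knockout and at 69.2, 73.2 and 83.7 CPM in the double knockout. Its groups overlapped, both libraries numbered 3 were the highest of their group, and the log2 fold change was −0.06 (SE 0.10). Without double knockout replicate 1 it was 0.00185.

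The start regions of these genes are shown because the network's own binding sequence, and those of the edited factors, can be read in them. In the 250 bases before each RefSeq start (GRCh38.p14), 4 motifs were searched on both strands: the E-box CACGTG bound by MAX pairs, the CRE TGACGTCA and the AP-1 sequence TGANTCA bound by JUN and ATF3 pairs, and the GC box GGGCGG. Of the members, 9 had 14 such windows in the RefSeq table. MYC had none there, so the bases before its start were not searched. The E-box was in 3 of the 14, at MNT, MLX and MXD4, and in 6.34% of all 35116 windows. The CRE was in the window of MLXIP (1.65% of all windows) and the AP-1 sequence in that of MXD3 (6.57%), while the GC box was in 11 of the 14 (42.6% of all windows). Of the genes with an E-box, MNT was higher, MLX was lower and the groups of MXD4 overlapped. The part of any of these motifs in the levels was not tested. The first base of the E-box, CRE or AP-1 sequence lies at −193 in MNT, −50 in MLX, −238 in MXD4, −57 in MLXIP and −79 in MXD3, counted back from the start. The sequences below run 5′ to 3′ in the direction of the gene, end before the first annotated exon base, and have the motifs in capitals.
MNT (chr17:2401119-2401310, minus strand): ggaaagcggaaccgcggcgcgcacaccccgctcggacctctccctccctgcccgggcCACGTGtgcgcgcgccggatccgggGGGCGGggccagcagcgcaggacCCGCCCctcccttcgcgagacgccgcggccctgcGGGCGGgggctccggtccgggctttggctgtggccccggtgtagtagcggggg
MLX (chr17:42566850-42567067, plus strand): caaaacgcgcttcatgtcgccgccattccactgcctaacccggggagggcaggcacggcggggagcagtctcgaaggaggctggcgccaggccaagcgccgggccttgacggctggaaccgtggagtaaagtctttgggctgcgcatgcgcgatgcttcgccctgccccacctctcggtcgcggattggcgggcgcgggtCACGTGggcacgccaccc
MXD4 (chr4:2262295-2262359, minus strand): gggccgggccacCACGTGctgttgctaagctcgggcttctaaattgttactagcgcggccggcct
MLXIP (chr12:122078506-122078721, plus strand): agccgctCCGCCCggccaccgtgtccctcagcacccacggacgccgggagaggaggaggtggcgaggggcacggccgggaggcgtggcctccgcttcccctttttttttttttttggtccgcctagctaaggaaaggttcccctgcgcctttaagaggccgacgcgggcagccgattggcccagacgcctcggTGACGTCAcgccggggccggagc
MXD3 (chr5:177312758-177313002, minus strand): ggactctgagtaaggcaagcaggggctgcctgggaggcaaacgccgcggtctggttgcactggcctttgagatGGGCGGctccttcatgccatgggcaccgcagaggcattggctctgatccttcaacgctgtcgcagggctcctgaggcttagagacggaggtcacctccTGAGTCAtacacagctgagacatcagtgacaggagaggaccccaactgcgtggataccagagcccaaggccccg

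The MXD genes encode the repressors that pair with MAX as cells stop dividing and mature, and their log2 fold changes had both signs. MXD1 was at 52.1, 49.6 and 42.8 CPM in the JUN knockout and at 58.5, 51.9 and 47.1 CPM in the double knockout. The groups overlapped, yet within each pair the double knockout was higher, by 0.16, 0.07 and 0.14 on the log2 scale. The log2 fold change of MXD1 was 0.12 (SE 0.12) and it turned to −0.04 with a transcript length correction.

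MXD4 was at 49.6, 55.7 and 51.4 CPM in the JUN knockout and at 41.9, 51.0 and 65.4 CPM in the double knockout. The double knockouts held both the lowest and the highest library, and the pairs went apart at −0.24, −0.13 and 0.34. The log2 fold change was 0.01 (SE 0.16), and without both libraries numbered 3 it was −0.19. MXD4-201 held 73.4 ± 2.96% and 73.5 ± 2.57% of its reads (SD, n = 3 each, exact permutation p = 1).

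MXD3, a member of the family that is transcribed in dividing cells, was at 29.6, 25.7 and 20.6 CPM in the JUN knockout and at 24.5, 25.5 and 17.7 CPM in the double knockout. The groups overlapped, and the libraries numbered 3 were the lowest of each group. For MXD3 the log2 fold change was −0.17 (SE 0.19), and it was −0.02 without double knockout replicate 3. Its pair differences were −0.27, −0.0099 and −0.21. The share of MXD3 reads on its 3 transcripts annotated as retaining an intron, which the choice of members did not use, was 30.5%, 28.9% and 33.9% in the JUN knockout and 21.3%, 24.8% and 20.9% in the double knockout. Every double knockout library lay below every JUN knockout library. The means were 31.1 ± 2.56% and 22.3 ± 2.16% (SD, n = 3 each). The exact two-sided permutation test gave p = 0.1, the smallest that 3 libraries against 3 allow, and p = 0.4 after Benjamini-Hochberg adjustment over the 4 members examined. MXD3-206 carried most of these reads, with 25.8% to 28.97% of the gene's reads in the JUN knockout and 18.3% to 22.3% in the double knockout.

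The same share did not separate the groups in the other members examined. It was 17.9 ± 0.675% and 18.3 ± 1.59% for MXD4, 20.3 ± 1.66% and 19.4 ± 0.201% for MNT, and 39.6 ± 3.86% and 37.0 ± 4.75% for MLX (SD, n = 3 each, exact permutation p = 0.9, 0.4 and 0.6). This measure was added after the data had been seen, for members with a mean share of 5% or more. MXD3 overlaps RAB24 on its own strand and PRELID1 on the other, so part of its reads may be uncertain.

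MXI1, the most variable member, was at 22.7, 21.0 and 7.93 CPM in the JUN knockout and at 22.3, 23.6 and 16.1 CPM in the double knockout. JUN knockout 3 stood far below the other libraries, and double knockout 3 was the next lowest. For MXI1 the log2 fold change was 0.26 (SE 0.37). It turned to −0.08 without JUN knockout replicate 3 and was 0.06 without both libraries numbered 3. The pair differences were −0.03, 0.16 and 0.98.

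MXI1 is read from separate start regions, which give proteins with different first exons. On chromosome 10 in GRCh38, plus strand, 3 transcripts led by MXI1-202 form an upstream region from 110207605, and 7 led by MXI1-201 a downstream region from 110225993, 18388 bases further on. The downstream transcripts held 277, 311 and 20.8 estimated reads in JUN knockouts 1, 2 and 3 and 207, 342 and 228 in the double knockouts. The upstream ones held 342, 273 and 185 reads and 347, 280 and 228 reads. The low level in JUN knockout 3 thus lay mainly in the downstream transcripts. Their share was 10.1% there (95% exact binomial interval 6.42% to 15.2%) and 37.4% to 55.0% in the other libraries, the lowest of these with an interval of 33.3% to 41.5%. MXI1-201 itself was estimated at 0 of the gene's reads in JUN knockout 3, which allows a share of up to 1.45% (3 reads), against 207 to 307 reads elsewhere. Intervals and this limit cover counting error only, not how Salmon shared out reads. Over the groups the share of the leading transcript MXI1-202 was 60.3 ± 25.7% and 48.6 ± 8.45% (SD, n = 3 each, exact permutation p = 0.6). The bases before the starts of MXI1-202 and MXI1-201 are shown because the libraries differ in the use of these regions, with GC boxes in capitals. The window of the downstream start holds 4 of them and that of the upstream start 1. A further RefSeq window within the upstream region, at chr10:110209981-110210230 and not printed, holds 3. None of these windows holds the E-box, the CRE or the AP-1 sequence.
MXI1 upstream start (chr10:110207355-110207604, plus strand): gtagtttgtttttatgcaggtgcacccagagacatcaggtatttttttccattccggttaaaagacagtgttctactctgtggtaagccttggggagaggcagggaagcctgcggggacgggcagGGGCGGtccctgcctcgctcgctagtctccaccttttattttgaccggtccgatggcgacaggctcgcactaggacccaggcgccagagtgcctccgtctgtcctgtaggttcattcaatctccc
MXI1 downstream start (chr10:110225746-110225992, plus strand): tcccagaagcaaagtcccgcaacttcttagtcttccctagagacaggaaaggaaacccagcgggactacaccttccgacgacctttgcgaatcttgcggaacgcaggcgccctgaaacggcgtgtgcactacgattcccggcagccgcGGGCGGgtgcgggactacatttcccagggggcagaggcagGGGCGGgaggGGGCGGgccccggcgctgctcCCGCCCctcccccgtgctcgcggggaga

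**Figure D3:**
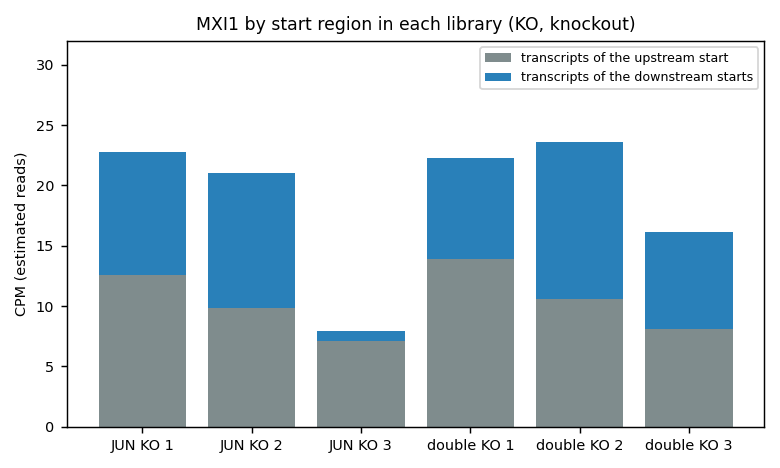
MXI1 CPM in each library, stacked by start region (grey, upstream start; blue, downstream starts), from estimated reads; 1 bar is 1 library. The blue part is 0.798 CPM in JUN knockout 3 and 8.05 to 13.0 CPM in the other 5 libraries.

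MGA, a very large protein with a second DNA-binding domain beside the one it uses with MAX, was at 188, 158 and 181 CPM in the JUN knockout and at 176, 199 and 198 CPM in the double knockout. The groups overlapped, and pair 1 went against the others, at −0.09 against 0.33 and 0.13. The log2 fold change was 0.12 (SE 0.10), and 0.04 without JUN knockout replicate 2. The split of its reads between long coding transcripts was unstable: MGA-201 was estimated at 0, 107 and 1003 reads in the JUN knockout and 0, 1141 and 0 in the double knockout, with no order by genotype.

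**Figure D4:**
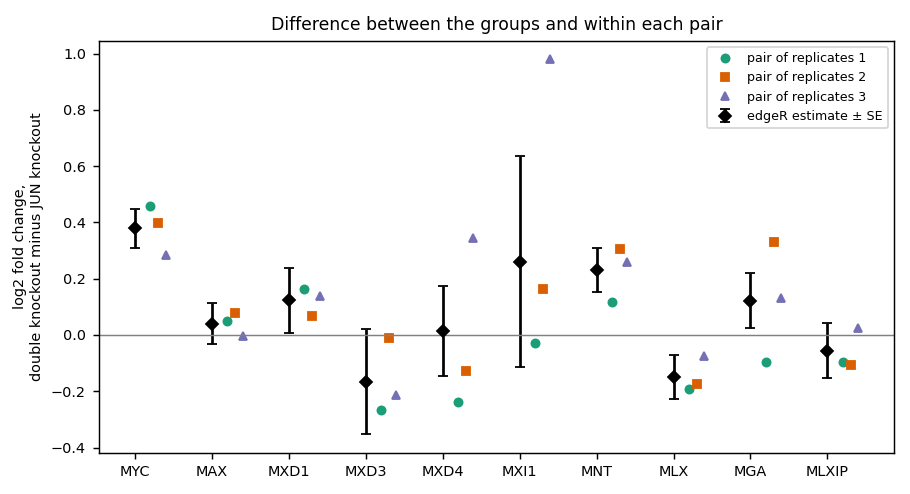
Log2 fold change, double knockout minus JUN knockout, for each network gene: black diamonds are edgeR estimates with 1 SE, coloured points the differences within same-numbered pairs. MYC, MNT and MXD1 have all 3 pairs above 0, MLX and MXD3 have all 3 below 0, and MXI1 ranges from −0.03 to 0.98.

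Counted over the network, MYC and MNT were higher without overlap of the groups, where 6.31% of all tested genes were. MLX was lower without overlap, where 5.94% of all tested genes were. Together, 3 of 10 members had groups that did not overlap, as did 12.3% of all tested genes. 5 of the 10 members (MYC, MNT, MXD1, MLX and MXD3) kept 1 direction over the 3 pairs, against a background of 33.2%. For MXD3 this rests on a pair 2 difference of only −0.0099. The log2 fold change was above 0 in 7 of 10 members and in 50.7% of all tested genes, and below 0 in 3 of 10 against 49.3%. edgeR's quasi-likelihood test, adjusted over all genes by Benjamini-Hochberg at 0.05, called 0 of the 10 members and 0 of 12954 genes (0%). Of all genes, 753 (5.81%) had an unadjusted p under 0.05. limma-voom called 0 members (0.0309% of all genes), and DESeq2 called 1, MYC (0.548% of all genes). With the replicate block edgeR called 0 members (0%). As MYC was picked from this comparison, the calls and the counts reuse the values that chose the network, and nothing is read from any of them.

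Levels per length put MYC against its antagonists within each library. The summed TPM of MXD1, MXD3, MXD4, MXI1 and MNT was 86.9, 77.3 and 63.5 in the JUN knockout and 76.2, 88.1 and 69.6 in the double knockout. MYC stood at 4.32, 4.36 and 5.37 times that sum in the JUN knockout and at 6.19, 5.60 and 6.19 times in the double knockout. The ratio did not overlap between the groups (4.68 ± 0.593 and 5.99 ± 0.342, SD, n = 3 each), and its highest JUN knockout value belonged to the library with little MXI1. The ratio of MYC to MAX in TPM overlapped, at 5.37 to 5.88 and 5.55 to 6.78. This overlap depends on the scale, since short transcripts such as MAX-209 weigh heavily in the TPM of MAX. In reads MAX was at 79.1 to 86.1 CPM in the JUN knockout and at 83.5 to 85.8 CPM in the double knockout. MYC was at 552 to 590 and at 718 to 759 CPM. All these ratios are of mRNA, and those with MYC contain the MYC difference already described.

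The genes whose pattern over the 6 libraries was closest to that of MYC were GAA, a lysosomal glucosidase, TMEM69, EEF1A1P13, NAAA, an amidase of lysosomes, and EEF1A1P11. Their root mean square difference from MYC in centred log2 CPM was 0.0316 to 0.0524, the smallest of 8944 genes with a mean of at least 10 CPM. GAA was at 26.9, 29.1 and 28.3 CPM in the JUN knockout and at 36.5, 36.2 and 35.9 CPM in the double knockout. EEF1A1P13 and EEF1A1P11 are pseudogenes whose reads cannot be told from those of their parent family. MNT ranked 104 in that order, MGA 1480 and MAX 1570, and MXI1 8757.

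Around the network, 191 entries in 11 lists of cofactors, regulators and targets were examined, of which 177 genes outside the network were tested. edgeR called 0 of the 177, with 11 at an unadjusted p under 0.05 (5.81% of all genes). limma-voom called 0 of them (0.0309% of all genes), and DESeq2 called 1, PLK1 (0.548% of all genes). The median log2 fold change of all tested genes was 0.0032, with 6572 above 0 and 6382 below and quartiles of −0.11 and 0.12. The list medians lay within these quartiles except for genes repressed by MYC, at 0.16, and targets of MLXIP and MLX, at −0.14. These 2 lists held only 10 and 6 tested genes. Quartiles of single genes do not measure the spread of list medians, so nothing is read from this. The groups did not overlap in 16 of the 177 list genes (11 higher and 5 lower), nor in 12.3% of all tested genes. Nothing is therefore read from single list genes without overlap. The lists themselves were not tested, and the values that follow describe levels.

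MYC is known to activate genes of the nucleolus and of ribosome assembly. Of 27 tested, 7 were above 0 and 20 below, with a median of −0.08. NPM1, which encodes nucleophosmin, averaged 1783 ± 108 CPM without and 1649 ± 54.9 CPM with the ATF3 knockout, and NCL, nucleolin, at 1676 ± 324 and 1617 ± 116 CPM (SD, n = 3 each). The extremes were NOP2, an rRNA methyltransferase, with a log2 fold change of −0.49 (SE 0.19), and WDR12 with 0.09 (SE 0.11). The medians within pairs were 0.21, −0.19 and −0.13, so pair 1 went the other way.

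Of 35 metabolic targets, 16 were above 0 and 19 below, with a median of −0.03. ENO1, a glycolytic enzyme, was at 1674 ± 335 and 1743 ± 184 CPM, and EIF4A1, a helicase of translation initiation, at 1507 ± 79.5 and 1425 ± 52.1 CPM (SD, n = 3 each). CAD, which starts pyrimidine synthesis and is a classic MYC target, was at 136, 166 and 193 CPM in the JUN knockout and at 201, 213 and 202 CPM in the double knockout, without overlap. Its log2 fold change of 0.32 (SE 0.13) was the highest of the list above 10 CPM, and that of HSPE1, a mitochondrial chaperonin, the lowest at −0.35 (SE 0.39).

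Of 14 cell cycle targets, 7 were above 0 and 7 below, with a median of 0.03. CDK6 was at 416 ± 60.8 and 440 ± 36.3 CPM, and CDCA7 at 300 ± 18.4 and 285 ± 37.3 CPM (SD, n = 3 each). CUL1, a scaffold of ubiquitin ligases, was the highest above 10 CPM at 0.41 (SE 0.30) and CKS2 the lowest at −0.28 (SE 0.15). Genes that MYC is known to repress were above 0 in 8 of 10, with a median of 0.16. CEBPA, a factor of granulocyte differentiation, was at 229, 228 and 262 CPM in the JUN knockout and at 305, 266 and 318 CPM in the double knockout, and GADD45A, a stress response gene, at 13.9, 13.9 and 11.5 and at 16.4, 16.1 and 19.6 CPM. Neither gene's groups overlapped, at log2 fold changes of 0.31 (SE 0.10) and 0.41 (SE 0.13). CDKN2C was at 205 ± 4.46 and 210 ± 18.7 CPM, and CDKN1B, an inhibitor of cyclin-dependent kinases, had the lowest value above 10 CPM at −0.04 (SE 0.15).

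Of the 6 targets of MLXIP and MLX, 1 was above 0 and 5 below, with a median of −0.14. TXNIP, the glucose-responsive arrestin that reports on MLXIP activity, was at 486, 188 and 106 CPM in the JUN knockout and at 243, 195 and 115 CPM in the double knockout. It was highest in the libraries numbered 1 and lowest in those numbered 3, in both groups (log2 fold change −0.50, SE 0.55). LDHA was at 691 ± 186 and 615 ± 103 CPM, and HK2 at 158 ± 12.5 and 160 ± 8.99 CPM (SD, n = 3 each).

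The partners through which these factors act showed small differences. In the SIN3 corepressor 3 of 14 genes were above 0 (median −0.06). SIN3A, the scaffold bound by MXD proteins and MNT, was highest at 0.15 (SE 0.08), without overlap. BRMS1 was lowest at −0.15 (SE 0.16). RBBP4 was at 399 ± 12.4 and 393 ± 13.3 CPM and HDAC2 at 279 ± 13.4 and 267 ± 10.8 CPM (SD, n = 3 each). In the polycomb complex of MGA 3 of 9 were above 0 (median −0.06), between L3MBTL2 at −0.25 (SE 0.22) and PCGF6 at 0.12 (SE 0.12). CBX3 was at 328 ± 39.5 and 302 ± 8.998 CPM and TFDP1 at 280 ± 34.9 and 268 ± 18.7 CPM (SD, n = 3 each).

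Among MYC coactivators 7 of 18 were above 0 (median −0.04). CDK9, the kinase that releases paused polymerase, was at 73.9, 79.8 and 69.6 CPM in the JUN knockout and at 91.2, 91.2 and 84.9 CPM in the double knockout, without overlap (log2 fold change 0.26, SE 0.08). SMARCB1 was the lowest above 10 CPM at −0.20 (SE 0.10), and HCFC1 and RUVBL2 were at 0.06 (SE 0.09) and −0.05 (SE 0.13).

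Among genes of MYC protein turnover 7 of 18 were above 0 (median −0.03). PLK1, a mitotic kinase that can stabilise MYC, was at 143, 133 and 139 CPM in the JUN knockout and at 112, 114 and 115 CPM in the double knockout, without overlap (log2 fold change −0.28, SE 0.07). GSK3B, the kinase that marks MYC for degradation, was the highest at 0.19 (SE 0.08), also without overlap. SET and HUWE1 were at −0.02 (SE 0.08) and 0.03 (SE 0.12).

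Among factors of MYC transcription and mRNA stability 10 of 18 were above 0 (median 0.02). RUNX1, a regulator of blood formation, was at 353, 298 and 302 CPM in the JUN knockout and at 395, 376 and 409 CPM in the double knockout, without overlap (log2 fold change 0.31, SE 0.09). HNRNPD, which binds AU-rich mRNA, was the lowest above 10 CPM at −0.25 (SE 0.14), and HNRNPK was at 0.01 (SE 0.09). Among MYC relatives and other E-box factors 7 of 10 were above 0 (median 0.05). USF1, another E-box binder, was at 72.0, 80.6 and 79.3 CPM in the JUN knockout and at 53.2, 54.0 and 70.9 CPM in the double knockout, without overlap (log2 fold change −0.38, SE 0.13). BHLHE40 was the highest at 0.46 (SE 0.20), and SREBF2 and SREBF1 were at 0.23 (SE 0.10) and 0.02 (SE 0.12).

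**Figure D5:**
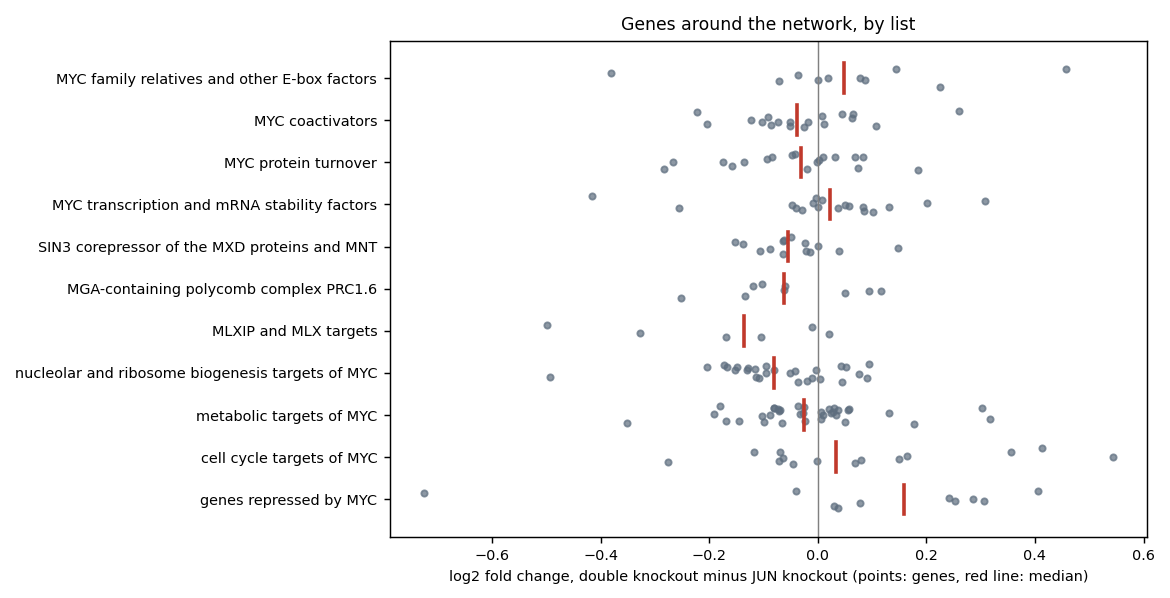
Log2 fold change, double knockout minus JUN knockout, of each tested gene (points, spread vertically for visibility) in the 11 lists around the network, with the list median as a red line. Medians run from −0.14 (MLXIP and MLX targets) to 0.16 (genes repressed by MYC), and edgeR called 0 of the 177 genes.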

How the data were processed

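Poly(A) RNA of EoL-1 cells was made into 6 libraries with an Illumina stranded kit, per the labels' protocols. The submitters' processing notes list FastQC 0.11.9, Salmon 1.6.0 and the build hg38, and Salmon's index and settings are not given here. The deposited files hold estimated counts, TPM and an effective length (identical in all 6) for 177456 transcripts, per the file headers. Of these, 94.1% matched GENCODE 29 (GRCh38) by identifier without version, and 3.58% to 3.71% of reads fell on the others and were left out. For each gene the estimated counts of its transcripts were added and rounded to whole numbers. The totals of 26146998 to 29567970 reads limit the precision of low transcripts.

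edgeR 4.0.16 (R 4.3.3) compared the groups with filterByExpr, TMM scaling and robust quasi-likelihood F tests, two-sided, with Benjamini-Hochberg adjustment over 12954 genes. SE is the log2 fold change divided by the square root of F. Log2 differences of single libraries used CPM with 0.5 added. Alternatives were RLE scaling, DESeq2 1.42.0 (on the same genes), limma-voom (limma 3.58.1), no low-count filter, 1 CPM in 3 libraries, a transcript length offset, a replicate block, and each library left out. Transcript shares were compared by exact permutation of the 6 libraries. edgeR was also run on simulated counts with known changes, drawn independently for each library and so without the main axis of variation. The outcome is not reported here, and nothing is read from it. All library pairs differed beyond counting noise (chi-square per gene at least 11.7).

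Same-numbered libraries were treated as pairs because their file names share a code. Their deviations from the group mean correlated with r = 0.387, 0.103 and 0.523 for pairs 1, 2 and 3. Between unlike numbers, r was 0.201 for JUN knockout 1 with double knockout 2 and 0.103 for JUN knockout 2 with double knockout 3. The others were negative. By this measure pair 2 did not stand out from unpaired libraries. The members and lists were chosen with earlier results of these data known. In each list the genes named are those that passed, the 2 with the highest mean CPM, and the highest and lowest log2 fold change above 10 CPM. Of the 191 list entries, 190 matched a gene; RRN3 did not.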

Additional observations from a re-analysis of the deposited data

How the results depend on the processing

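The count of genes called was 0 with edgeR and moved to 71 with DESeq2, 4 with limma-voom and 1 with no low-count filter. Without both libraries numbered 3, an alternative chosen after seeing the data, it was 1. DESeq2 called 1 network member (MYC) and 1 list gene (PLK1), and each other alternative called 0 of both. With the replicate block 0 genes, 0 members and 0 list genes were called, so the pairing changed no call. It did move the edgeR p-values: genes with an unadjusted p under 0.05 went from 753 to 1268. The lowest adjusted p went from 0.397 to 0.0873. Leaving out any 1 library called 0 genes, members and list genes. The MYC log2 fold change ran from 0.34 (without both libraries numbered 1) to 0.42 (without both libraries numbered 3) over 16 alternatives, that of MNT from 0.18 to 0.29 and that of MLX from −0.19 to −0.10. MAX, MGA and MXD3 also kept their sign, while MLXIP, MXD1 and MXI1 changed it in 1 alternative each and MXD4 in 6.

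Differences in leading transcript share, in percentage points, changed sign with TPM shares for MYC (−0.00904), MXD3 (−0.711) and MGA (−0.747). With 1 library left out they ran from −0.991 to 1.79 for MYC, −0.870 to 7.65 for MXD1, −1.26 to 1.66 for MXD4, −19.8 to 3.02 for MXI1, −0.919 to 6.17 for MLX and −1.50 to 2.63 for MGA. The retained-intron share of MXD3 kept its direction, from −10.0 to −7.38 (exact sign flips of the pairs, p = 0.25, the smallest 3 pairs allow). That of MXD4 ran from −0.510 to 1.07 and that of MLX from −4.43 to 0.0660, and that of MNT was 1.37 with TPM shares. The cause of these sign changes was not tested. Depth limits the low members most: MXI1 and MXD3 had 206 to 806 reads per library.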
